A study of Homo sapiens with 4 samples.

Results

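The sites described here are the SATB1 peaks of HepG2 chromatin that coincide with an SMRC1 peak and with no NFIC peak. They were chosen by peak overlap in the 3 deposited lists: a SATB1 peak was taken when it shared at least 1 bp with an SMRC1 peak and none with an NFIC peak. The rule took 1732 of 3296 SATB1 peaks, or 52.5%, and they are called SATB1-SMRC1 sites below. Of the other SATB1 peaks, 854 overlapped both other proteins (triple sites), 662 overlapped neither (SATB1-alone sites) and 48 overlapped NFIC without SMRC1. All lists came from HepG2, an established line from a human liver tumour, with no treatment named other than crosslinking with 1% formaldehyde, and with 1 ChIP-seq library per antibody. The study set its own antibodies against published ChIP-seq made with commercial ones, which is not analysed here. With 1 library per antibody there was no replicate spread, so the values are descriptions of these libraries. Intervals in brackets are 95% intervals that cover counting error over peaks only, and no test was made between the classes, since the rule used the peak calls of all 3 lists.

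SATB1 is a nuclear protein that binds A+T-rich DNA at sites prone to unwinding and tethers them, and it is best known from thymocytes, where it shapes chromatin loops and recruits remodelling enzymes to them. SMRC1 is the database name of SMARCC1 (BAF155), a scaffold subunit of the SWI/SNF complexes, which use ATP to slide or evict nucleosomes at promoters and enhancers. NFIC belongs to the nuclear factor I family, dimeric transcription factors that recognise a palindromic site and are active in liver. The SATB1-SMRC1 sites are therefore places where reads of the chromatin organiser and of the remodeller piled up together without a called nuclear factor I peak. ChIP of crosslinked chromatin recovers indirect contacts as well as direct binding, so a peak does not tell whether a protein touched the DNA there.

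A few general facts bear on these sites. The SMRC1 list held 29441 peaks and the NFIC list 13643, so SATB1 was the shortest list by far. For each peak the authors' caller gave a fold and a −log10 q, which grows with the strength of the evidence. The fold is reads at the summit over the local background, with 1 added to each. For SMRC1 the reads in the fold were first scaled by 0.776. SMRC1 read numbers below are unscaled unless the scale of the background is named. Each peak's fold and p-value together fix the number of reads at its summit and the local background, and both could be worked out for 100% of peaks of the 3 lists. Where the SATB1 and SMRC1 summits of a SATB1-SMRC1 site lay within 10 bp of each other (145 sites), the background in the SATB1 list was 0.868 times that in the SMRC1 list at the median, with quartiles of 0.868 and 0.877. This ratio hardly varied between sites, so the 2 lists had proportional backgrounds there.

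Most SATB1-SMRC1 sites were moderate SATB1 peaks. The summit held a median of 33 SATB1 reads (33 to 34), over a local background of 8.94 reads (8.77 to 9.48). The number of reads ranged from 9 to 338, with quartiles of 27 and 42. The fold had a median of 3.41 (3.37 to 3.48), with 10% of sites below 2.59 and 10% above 4.63. The −log10 q had a median of 5.65 (5.48 to 5.89), and the weakest site, chr16:21536294-21536817 in band p12.2, had a −log10 q of 1.04 with 37 reads over a background of 19.3. Of the sites, 251 (14.5%, 12.9 to 16.2) had a −log10 q of at least 10, against 13.8% of all SATB1 peaks. A fold of at least 5 was reached by 110 sites (6.35%, 5.25 to 7.60), against 9.44% of all SATB1 peaks. By −log10 q the share of strong peaks was thus close to that of the whole list, whereas by fold it was lower.

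In the SATB1 library the SATB1-SMRC1 sites and the triple sites had nearly the same fold, −log10 q and reads, while the triple sites were somewhat wider. The median fold was 3.41 in the former and 3.42 (3.36 to 3.48) in the latter, and the median −log10 q was 5.65 and 5.90 (5.60 to 6.20). Median reads were 33 and 34 (33 to 35), and reads above background were 24.1 (23.6 to 24.5) and 24.2 (23.7 to 25.1). The SATB1 peak was 400 bp wide (393 to 409) and 420 bp (409 to 434). Triple sites made up 20.5% of SATB1 peaks in the narrowest quartile group and 32.0% in the widest. A wider peak meets the overlap with NFIC more readily, and the part of width was not tested. These intervals overlapped, so the presence of an NFIC peak went with little difference in SATB1 signal. SATB1-alone sites differed from both. Their summits held 21 reads (20 to 22) over a background of 4.38 (4.23 to 4.88), which gave 16.1 reads above background (15.5 to 17.2), a higher fold of 3.99 (3.90 to 4.09) and a lower −log10 q of 4.40 (4.25 to 4.66). The lower read number and the lower background of SATB1-alone sites stood side by side, and whether the background set part of the SMRC1 calls was not tested.

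**Figure D1:**
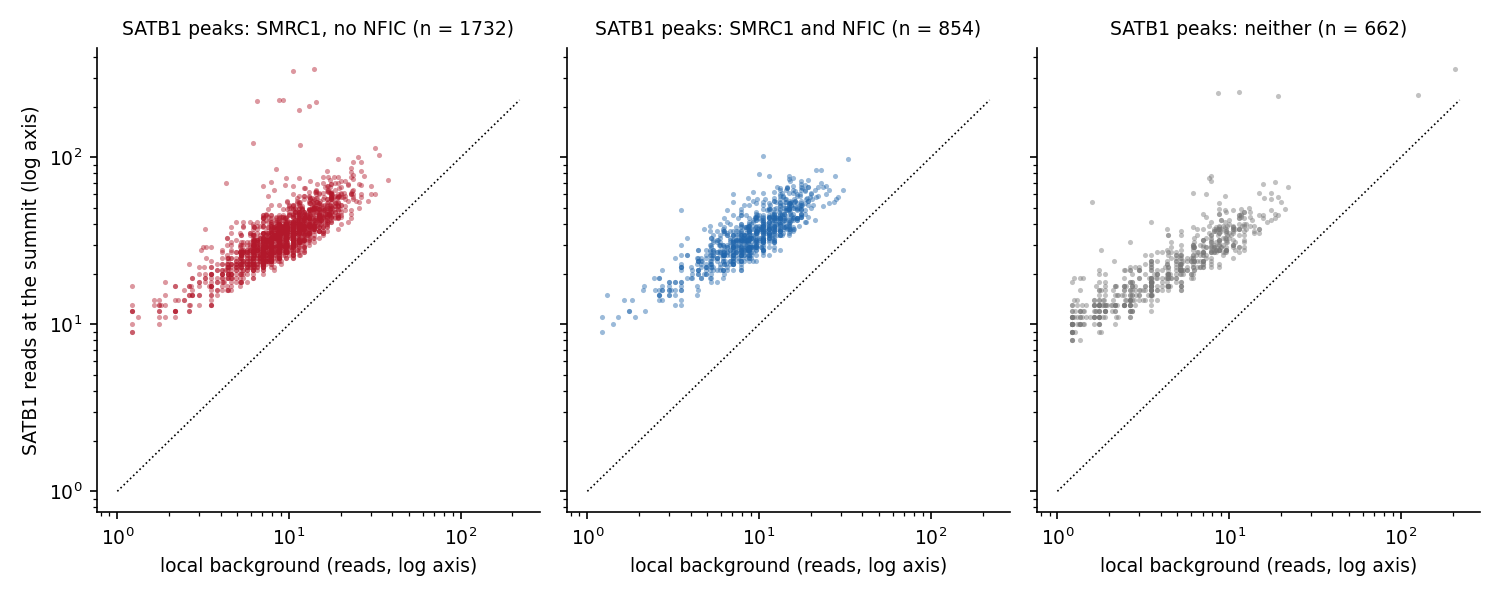
Recovered SATB1 reads at the summit (vertical, log axis) against the local background in reads scaled to the SATB1 library (horizontal, log axis), 1 point per SATB1 peak, in panels for SATB1-SMRC1 sites, triple sites and SATB1-alone sites. The dotted line marks reads equal to background. The first 2 clouds lie over each other, with medians of 33 and 34 reads, and the SATB1-alone cloud reaches lower (median 21 reads). At least 100 reads are seen at 13 peaks of the first panel and 5 of the third, some of them over a high background.

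The share of SATB1 peaks that fell into this class varied with the local background. In the lowest quartile group of SATB1 peaks by background (1.21 to 5.69 reads), 32.2% (29.0 to 35.5) were SATB1-SMRC1 sites and 48.7% (45.2 to 52.1) were SATB1-alone sites. In the quartile groups above it the share of SATB1-SMRC1 sites was 58.1% (54.7 to 61.5), 60.2% (56.8 to 63.6) and 59.7% (56.2 to 63.1). The change lay between the lowest group and the others, and above it the share was flat. From the lowest to the highest group the triple sites went from 16.9% (14.4 to 19.6) to 32.8% (29.6 to 36.1). By quartile group of SATB1 −log10 q the share of SATB1-SMRC1 sites was 47.8% (44.3 to 51.2) in the lowest and 55.3% (51.9 to 58.8) in the highest. By SATB1 fold it went the other way, from 59.7% (56.3 to 63.1) in the lowest group to 41.6% (38.2 to 45.1) in the highest, while that of SATB1-alone sites went from 9.59% (7.66 to 11.8) to 34.3% (31.1 to 37.7).

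The SATB1 list held a small group of very strong peaks, and the sites had their part of it. By −log10 q, 9 sites had values from 104 to 346, the site ranked 10 had 70.0, the next had 53.1, and the site ranked 20 had 26.9. At least 100 reads were found at 13 of the 1732 sites (0.751%, 0.400 to 1.28), against 0.667% of all SATB1 peaks. They were also found at 1 of 854 triple sites (0.117%, 0.00296 to 0.651), at 5 of 662 SATB1-alone sites (0.755%, 0.246 to 1.75) and at 3 of the 48 peaks with NFIC and without SMRC1 (6.25%, 1.31 to 17.2). By read number the share at the sites was thus close to that of the whole list and of SATB1-alone sites. This count did not take strong peaks alone, since it included summits over a high background. A SATB1-alone peak on chromosome 1 had 337 reads over a background of 206 and a fold of 1.63. Another, on chromosome 10, had a fold of 25.1. Some SATB1-SMRC1 sites on chromosome 14 also reached 100 reads over a high background. Whether the shares of strong peaks alone were alike was not tested. The strongest 10 SATB1-SMRC1 sites had between 119 and 338 SATB1 reads (median 215), over backgrounds of 6.14 to 14.4 reads, which is the range of ordinary sites.

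The strongest site was chr2:174219022-174220050 (band q31.1). Its SATB1 peak had 328 reads over a background of 10.5 and a fold of 28.6, and the SMRC1 peak there had 102 reads and a fold of 4.46. The next, chr1:228674377-228675408 (q42.13), had 338 SATB1 reads, a SATB1 fold of 22.6 and an SMRC1 fold of 6.50. At both the SATB1 fold was several times the SMRC1 fold. The third, chr5:96518707-96519546 (q15), had the highest SATB1 fold of all SATB1 peaks, 29.1, with 217 reads, beside an SMRC1 fold of 5.37. On chromosome 3 lay 2 of the 10, at chr3:12882752-12883488 (p25.2, SATB1 fold 22.5, SMRC1 fold 4.89) and chr3:129118131-129118771 (q21.3, SATB1 fold 21.7, SMRC1 fold 2.88). In the second of these the SMRC1 peak ranked 21536 of 29441, in the weaker part of the SMRC1 list.

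The other 5 of the strongest 10 had SATB1 folds from 9.48 to 17.1. They were chr22:41864523-41865166 (q13.2, 213 reads), chr4:109571251-109571976 (q25, 202 reads), chr6:110501104-110501852 (q21, 192 reads), chr21:34143946-34144609 (q22.11, 121 reads) and chr2:25895350-25896383 (p23.3, 119 reads). Across the strongest 10, the SMRC1 peak had a median fold of 4.67 (range 2.76 to 6.50) and ranked between 1693 and 21536 in its list, with a median rank of 6692. The SATB1 fold was higher than the SMRC1 fold at each of these 10 sites. They were picked for their SATB1 −log10 q, so this was largely set by the choice. Over all SATB1-SMRC1 sites the reverse was usual, and the SATB1 fold was the higher one at 480 of 1732 sites (27.7%, 25.6 to 29.9). The peaks of the strongest 10 were also wide, with 641 to 1034 bp against a median of 400 bp. The nearest NFIC peak lay between 4447 and 307433 bp away (median 83251 bp), and the SATB1 and SMRC1 summits were 6 to 509 bp apart (median 82 bp).

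The SMRC1 peaks at these sites were weaker than those at triple sites. The overlapping SMRC1 peak (the one with the highest −log10 q where there were 2) had a median fold of 4.19 (4.11 to 4.28). It had a median of 63 reads (61 to 65), or 48.9 (47.4 to 50.5) on the scale of the background. Its −log10 q had a median of 13.6 (12.9 to 14.3), against 24.7 (22.3 to 27.0) at triple sites, where the fold was 5.49 (5.33 to 5.73) and the reads 83 (80 to 87). On the scale of the background, SMRC1 reads above background were 37.2 (36.1 to 38.6) at SATB1-SMRC1 sites and 53.6 (50.1 to 55.8) at triple sites. The SMRC1 background was 10.6 reads (10.3 to 11.0) and 11.0 (10.3 to 11.5), so the 2 classes differed in SMRC1 reads and hardly in background. The absence of an NFIC peak thus went with a weaker SMRC1 signal beside close medians of SATB1 fold and reads.

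**Figure D2:**
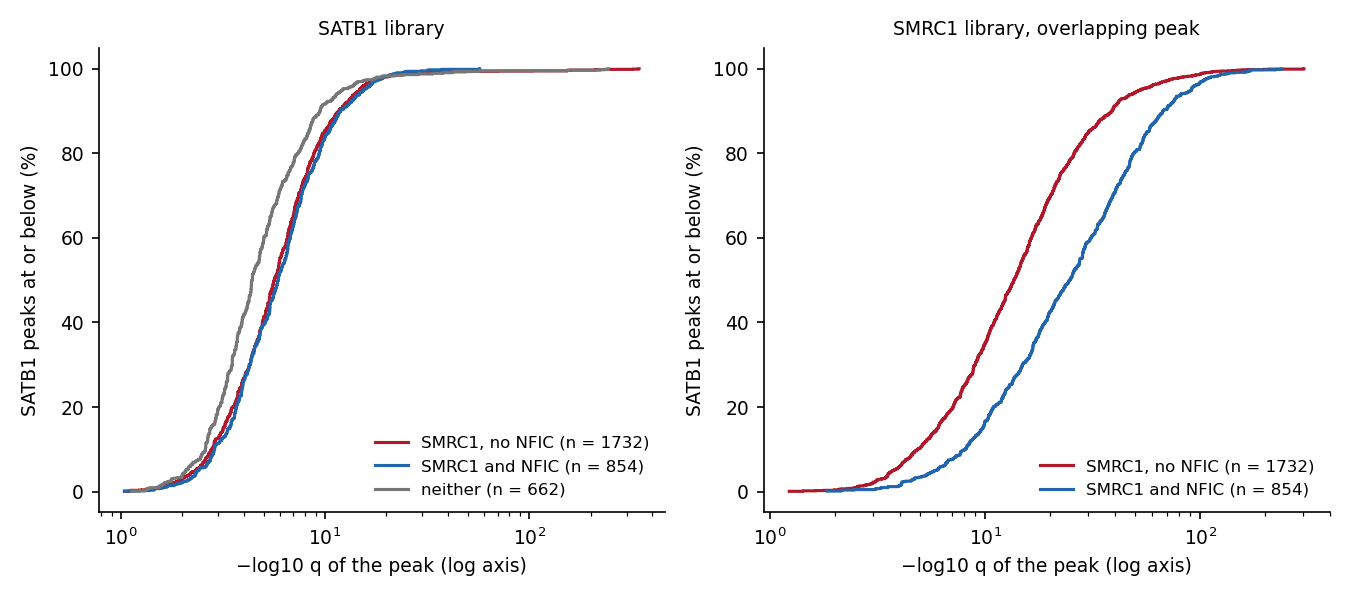
Cumulative share of SATB1 peaks (vertical, %) against −log10 q (horizontal, log axis) of the SATB1 peak on the left and of the overlapping SMRC1 peak on the right, for SATB1-SMRC1 sites (red), triple sites (blue) and, on the left, SATB1-alone sites (grey). The red and blue curves run together on the left (medians 5.65 and 5.90) and apart on the right (13.6 and 24.7).

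Ranked within the SMRC1 list, the SMRC1 peaks at these sites lay at a median of percentile 68.3 (66.2 to 70.1), where 100 is the strongest peak. At triple sites the median was percentile 85.8 (83.4 to 87.6). An SMRC1 −log10 q of at least 10 was found at 1125 SATB1-SMRC1 sites (65.0%, 62.7 to 67.2), against 43.7% of all SMRC1 peaks. The strongest 10% of the SMRC1 list supplied 255 sites (14.7%, 13.1 to 16.5), compared with 348 triple sites (40.7%, 37.4 to 44.1). The weakest 10% supplied 56 (3.23%, 2.45 to 4.18). Among the SATB1 peaks in SMRC1 peaks, the share without NFIC went from 82.4% (79.2 to 85.2) in the lowest quartile group of SMRC1 −log10 q to 75.6% (72.1 to 78.8), 65.9% (62.1 to 69.5) and 44.0% (40.2 to 48.0) in the groups above it. In the highest group, above a −log10 q of 29.1, triple sites outnumbered SATB1-SMRC1 sites.

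The strongest 10 SMRC1 peaks of the class carried SATB1 peaks of very different strength, which ranked from 22 to 2609 in the SATB1 list. The SMRC1 peak with the highest rank of its list, chr5:137673081-137674381 (q31.2), had 374 reads and a fold of 28.1, and the SATB1 peak in it had 32 reads and a fold of 3.38. The SMRC1 peak at chr17:45972925-45973984 (q21.32) had 371 reads, beside 41 SATB1 reads over a background of 16.3 and a SATB1 fold of 2.43. At chr19:47103809-47104860 (q13.32) the SMRC1 fold was 16.2 and the SATB1 fold 4.17. These SATB1 peaks ranked 1625, 2609 and 169 of 3296 in the SATB1 list. The highest SATB1 rank among the 10 was at chr11:842202-843218 (p15.5), where an SMRC1 fold of 18.2 coincided with a SATB1 fold of 8.10 and 71 SATB1 reads, the SATB1 peak ranking 22. The other 6, on chromosomes 2, 20, 14, 7, 17 and 1, had SMRC1 folds of 10.5 to 19.0 and SATB1 folds of 2.61 to 4.63.

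Within the class the signals of the 2 proteins were loosely related. Across the 1732 sites the fold of SATB1 and that of SMRC1 had a Spearman's rho of 0.21 and a Pearson's r of log2 values of 0.18, and the −log10 q values a rho of 0.14. Reads at the summits had a rho of 0.60, and the 2 backgrounds had one of 0.89. Triple sites were much alike, with a rho of 0.15 for fold, 0.11 for −log10 q, 0.55 for reads and 0.93 for background. These are descriptions across sites that share the libraries and the background, and the background enters both reads and folds. From the lowest to the highest quartile group of sites by SATB1 −log10 q, the median SMRC1 −log10 q was 12.4, 11.1, 13.8 and 16.7. From the lowest to the highest quartile group by SMRC1 −log10 q, the median SATB1 reads were 29, 32, 35 and 38, with SATB1 backgrounds of 7.89, 8.72, 9.48 and 10.5. The SATB1 fold went the other way over these groups, from 3.50 to 3.27.

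The SATB1 peaks mostly sat inside wider SMRC1 peaks. In the whole lists the median width was 607 bp for SMRC1 and 399 bp for SATB1, so SMRC1 peaks were the wider there too. A wide peak also meets an overlap of 1 bp more readily. The SATB1 peak had a median width of 400 bp (393 to 409) and the SMRC1 peak one of 810 bp (788 to 827), and the SMRC1 peak was the wider at 1526 sites (88.1%, 86.5 to 89.6). The SATB1 peak lay wholly within SMRC1 peaks at 1140 sites (65.8%, 63.5 to 68.1), and its summit was inside the SMRC1 peak at 1658 (95.7%, 94.7 to 96.6). At triple sites the SMRC1 peak was wider still, with 1026 bp (991 to 1075), and 83.0% (80.3 to 85.5) of SATB1 peaks were wholly inside. Sites wholly inside had a median SMRC1 −log10 q of 17.04, and those partly inside one of 8.71. The 1732 sites used 1719 different SMRC1 peaks, or 5.84% of that list. In 35 of these SMRC1 peaks there were 2 SATB1-SMRC1 sites, which was the most, and 22 SATB1 peaks touched 2 SMRC1 peaks.

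The summits of the 2 proteins lay close together, but the rule limits this distance, since the 2 peaks must overlap. The same limit holds for triple sites. The median distance was 86 bp (80 to 93), with quartiles of 36.8 and 215 bp. Summits within 50 bp of each other were found at 570 sites (32.9%, 30.7 to 35.2), and within 100 bp at 945 (54.6%, 52.2 to 56.9). Triple sites had a median distance of 84 bp (76 to 94) and 55.4% (52.0 to 58.8) within 100 bp, close to the values of SATB1-SMRC1 sites. In the quartile group with the closest summits (median 17 bp) the SATB1 −log10 q was 6.65 and in the group with the most distant (median 376 bp) it was 4.94, while from the closest to the most distant group the SMRC1 −log10 q was 14.6, 14.1, 11.9 and 14.3. The SMRC1 peak was 749 bp wide in the former and 1016 bp in the latter.

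**Figure D3:**
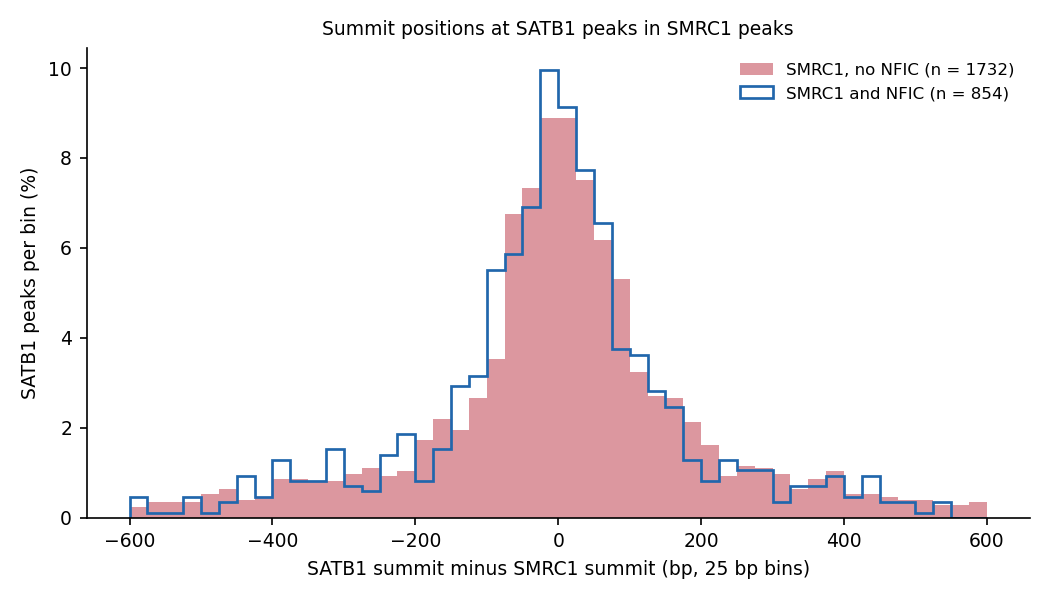
Distance in bp from the SMRC1 summit to the SATB1 summit (horizontal, bins of 25 bp, distances beyond 600 bp not drawn) and share of SATB1 peaks per bin (vertical, %), for SATB1-SMRC1 sites (filled, red) and triple sites (blue line). Both distributions are centred near 0, with median distances of 86 and 84 bp regardless of side.

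NFIC peaks were absent from the sites by the rule, and most sites also had no NFIC peak within 10 kb. The gap to the nearest NFIC peak had a median of 31026 bp (27939 to 34403), with quartiles of 9566 and 78925 bp. An NFIC peak lay within 500 bp of 85 sites (4.91%, 3.94 to 6.03), within 1 kb of 129 (7.45%, 6.26 to 8.79), within 10 kb of 449 (25.9%, 23.9 to 28.1) and within 100 kb of 1402 (80.9%, 79.0 to 82.8). SATB1-alone sites had a median gap of 27794 bp (23369 to 34105) and an NFIC peak within 1 kb in 4.38% (2.95 to 6.23) within 10 kb in 25.4% (22.1 to 28.9) and within 100 kb in 75.4% (71.9 to 78.6). The shares were alike at 10 kb, and at 1 kb and 100 kb that of the SATB1-SMRC1 sites was the higher. At 1 kb the intervals all but met, and these differences were not tested. At 83 sites (4.79%, 3.83 to 5.91) the SMRC1 peak itself overlapped an NFIC peak at a part that the SATB1 peak did not reach.

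The sites nearest to NFIC had the stronger and wider SMRC1 peaks. With an NFIC peak within 1 kb (129 sites), the median SMRC1 −log10 q was 20.4 and the SMRC1 peak 1102 bp wide. It was 14.6 and 839 bp with NFIC between 1 and 10 kb away (320 sites), 13.5 and 800 bp between 10 and 100 kb (953 sites), and 12.1 and 749 bp beyond 100 kb (330 sites). The SMRC1 fold was 4.91 in the nearest group and 4.14, 4.16 and 4.18 in the others, and the SMRC1 background was 12.0, 11.7, 10.6 and 9.36 reads. The SATB1 −log10 q had medians of 5.60, 5.44, 5.67 and 5.64 and the SATB1 reads of 34, 34, 34 and 32, while the SATB1 fold was 3.24, 3.29, 3.44 and 3.60 from the nearest group to the farthest. Background therefore moved with the distance to NFIC, and its part in these values was not tested.

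**Figure D4:**
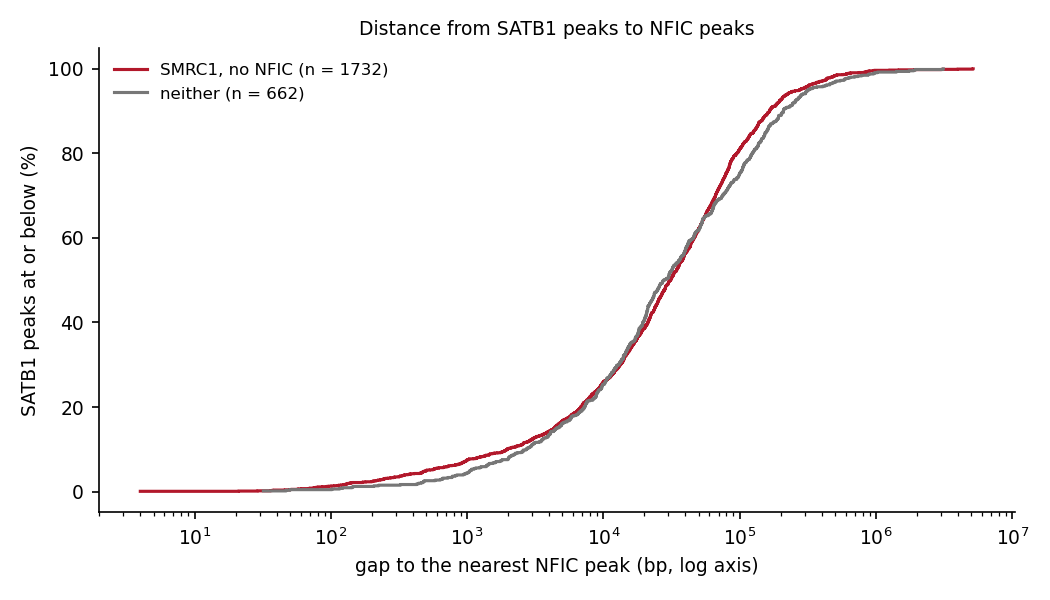
Cumulative share of SATB1 peaks (vertical, %) against the gap in bp to the nearest NFIC peak (horizontal, log axis) for SATB1-SMRC1 sites (red) and SATB1-alone sites (grey). The curves meet near 10 kb (25.9% and 25.4%), and the red curve is higher at 1 kb (7.45% and 4.38%) and at 100 kb (80.9% and 75.4%).

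The edges of the rule touched few sites. The SATB1 peak at chr14:23398715-23399097 (q11.2) shared 1 bp with an SMRC1 peak of fold 2.99, and those at chr21:47744645-47744953 (q22.3), chr2:20866690-20867029 (p24.1), chr4:1804610-1804918 (p16.3) and chr13:45907558-45908200 (q14.13) shared 6, 8, 20 and 32 bp. Only 9 sites shared less than 50 bp. Just outside, a SATB1-alone peak at chr1:154377444-154377752 (q21.3) abutted an SMRC1 peak without sharing a base, and one at chr6:30693988-30694329 (p21.33) was 9 bp away. In all, 18 of the 662 SATB1-alone sites lay within 100 bp of an SMRC1 peak. On the NFIC side, the SATB1-SMRC1 site at chr16:24550879-24551289 (p12.1) was 4 bp from an NFIC peak of fold 4.003, and that at chr2:208576440-208576748 (q33.3) was 21 bp from one of fold 7.47. Within 100 bp of an NFIC peak lay 22 sites. Just across, the triple site at chr3:190284530-190284838 (q28) shared 8 bp with an NFIC peak of fold 4.02, and 8 triple sites shared less than 50 bp.

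The sites were spread over all chromosomes, and like the whole SATB1 list they were densest in light-staining bands. Chromosomes 20, 17, 19 and 16 had the most sites per Mb, with 1.46, 1.42, 1.35 and 1.02, and chromosome 13 with 0.252 and X with 0.142 had few. Unstained bands held 1122 sites (64.8%, 62.5 to 67.0), or 0.859 per Mb, against 64.5% (62.9 to 66.2) of all SATB1 peaks, and the palest of the stained bands held 206, or 0.949 per Mb. The darkest bands held 94, or 0.189 per Mb, so the unstained bands were denser by a ratio of 4.56. This ratio was 4.95 for all SATB1 peaks, 4.31 for triple sites and 7.82 for SATB1-alone sites, the latter resting on 20 peaks in the darkest bands. The share of SATB1 peaks that were SATB1-SMRC1 sites was highest among the autosomes on chromosome 13 (64.4%, 48.8 to 78.1) and lowest on chromosomes 21 (40.5%, 24.8 to 57.9), 19 (42.6%, 35.4 to 49.96) and 17 (43.7%, 37.6 to 49.95). On chromosome 1, with 280 SATB1 peaks, it was 59.6% (53.6 to 65.4). Differences between chromosomes were not tested.

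Local background differed between chromosomes, and the SATB1 reads and fold at the sites differed with it. Chromosomes 2, 6, 14, 16, 17 and 20, chosen for their high background in these lists, held 656 of the sites (37.9%, 35.6 to 40.2), against 40.05% (38.4 to 41.7) of all SATB1 peaks, 45.6% (42.2 to 49.0) of triple sites and 39.0% (35.2 to 42.8) of SATB1-alone sites. At the sites on these chromosomes the SATB1 background was 13.01 reads and the reads 42, against 7.89 and 30 on the others. The fold was 3.14 and 3.60, and the −log10 q 6.09 and 5.45. The higher background was set by the choice of these chromosomes. Background enters the fold, and a peak over more background needs more reads to be called. The differences in reads and fold were therefore not independent of the choice. The highest median background was 16.9 reads on chromosome 20 and the lowest of a chromosome with more than 1 site was 3.11 on X. The share of SATB1 peaks that were SATB1-SMRC1 sites followed this order only in part. It was 43.7% on chromosome 17, 46.9% on 6 and 48.4% on 16. On chromosomes 2, 20 and 14 it was 52.7%, 54.1% and 55.8%. Over the chromosomes outside this set it was 54.5% (52.2 to 56.7), against 52.5% of all SATB1 peaks. Chromosomes 19 and 21, with the low shares above, had backgrounds of 8.77 and 7.05 reads.

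**Figure D5:**
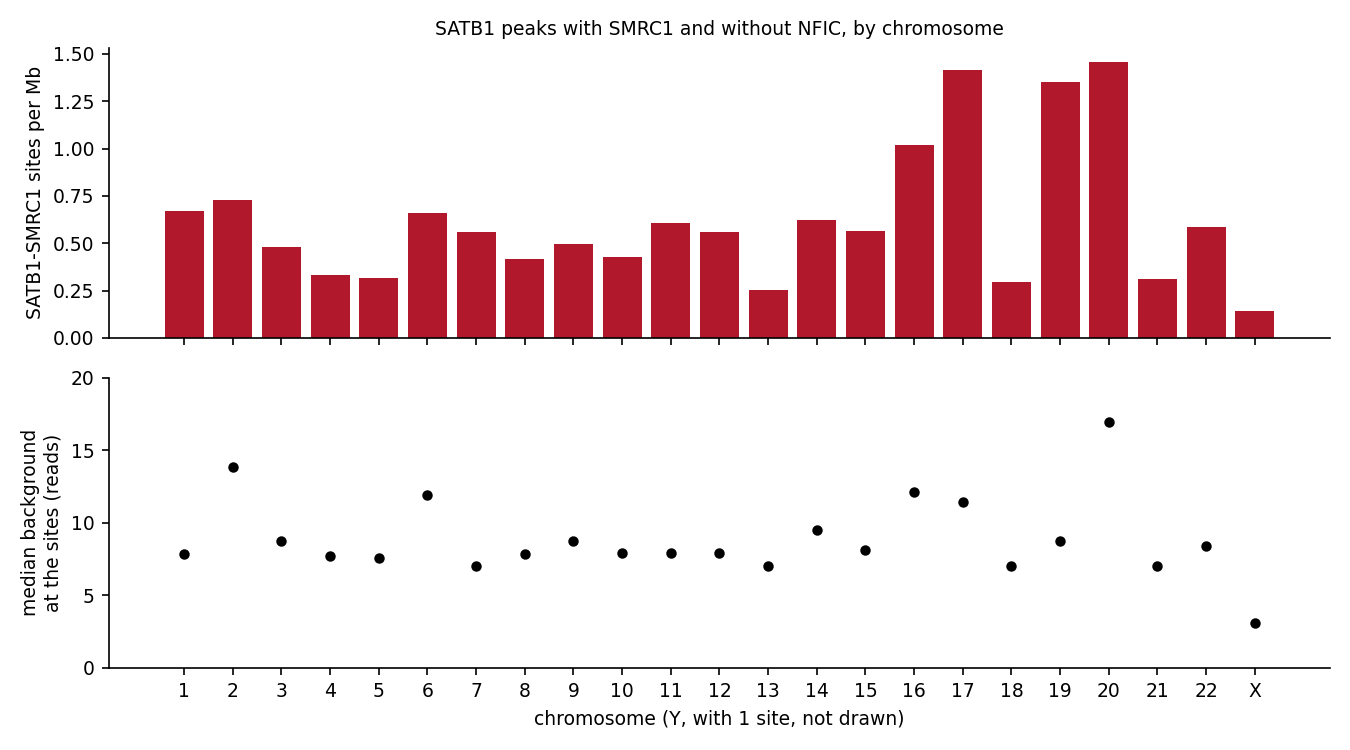
SATB1-SMRC1 sites per Mb (upper bars) and the median local background at their SATB1 summits, in reads scaled to the SATB1 library (lower points), by chromosome. Chromosomes 20, 17 and 19 have the tallest bars (1.46, 1.42 and 1.35), and of these chromosome 20 has a high background (16.9) while chromosome 19 does not (8.77).

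Most sites had no other SATB1-SMRC1 site within 10 kb. Spacing was not computed for the other classes or for an even spread, so whether the sites were clustered was not tested. The median distance to the next SATB1-SMRC1 site on the same chromosome was 248 kb (223 to 273), and 146 sites (8.43%, 7.16 to 9.84) had another within 10 kb. In fixed windows of 1 Mb, 995 windows held at least 1 site, 572 of them exactly 1, and 33 held 5 or more. The densest, the window from 3000001 to 4000000 on chromosome 20 (p13), held 10 sites among 12 SATB1 and 32 SMRC1 peaks, with a median fold of 2.91 over a background of 17.7. The first Mb of chromosome 19 (p13.3) held 9 among 14 SATB1 and 32 SMRC1 peaks, with a median fold of 2.85. Windows with 8 sites began at 105000001 on chromosome 14 (q32.33), 30000001 on chromosome 16 (p11.2) and 79000001 on chromosome 17 (q25.3). The last held 23 SATB1 and 59 SMRC1 peaks, so that there the sites were a minority of the SATB1 peaks, while on chromosome 20 they were most of them. None of the 10 strongest SATB1 peaks of the class lay in these 5 windows, where the SATB1-SMRC1 sites had a SATB1 −log10 q of at most 15.9.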

How the data were processed

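ChIP-seq peak lists of HepG2 chromatin for SMRC1, SATB1 and NFIC were used, 1 library each. The input library had no peak list and was not analysed here. The submitters' processing notes name hg19 as the build, and Bowtie 1.1.2, SAMtools, MACS2 2.1.1 and deepTools as tools. Settings, and which library was the control, were not given in the sources used here. The deposited fold, −log10 p, −log10 q and score (a rescaled −log10 q) are the authors' values per peak and served to describe and rank peaks within a list. The deposited score was not used further.

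Overlap meant at least 1 bp, and positions are 1-based. Reads and background were those for which the fold of MACS2 and its Poisson p-value both held (tolerance 0.001 in −log10 p). In the fold and p-value SMRC1 reads were scaled by 0.776 and SATB1 reads were not scaled. SMRC1 reads are printed unscaled, except where the scale of the background is named. The total read number is unknown. Shares have exact Clopper-Pearson intervals and medians order-statistic intervals, both 95%. The overlap and the recovery were tested on simulated peaks. Software was matplotlib 3.10.9, scipy 1.17.1, pandas 2.3.3, numpy 2.4.6, Python 3.11.15 and R 4.3.3, with hg19 bands from circlize 0.4.16.

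The sites, lists and rules were chosen with earlier results of these data known. Named peaks were the 10 strongest by SATB1 and by SMRC1 −log10 q, the 5 nearest to each edge of the rule and the 5 densest 1 Mb windows. They are given in full or in part, and the weakest site was named after its values were seen. No hg19 genome or gene annotation was used here. Genes, promoters, base composition and motifs were therefore not analysed.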

Additional observations from a re-analysis of the deposited data

How the results depend on the processing

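Each of 6 results (share of SATB1 peaks, SATB1 fold, −log10 q and width, SMRC1 fold, and summit distance) was recomputed under 6 alternatives. Of 36 values, 29 stayed within the interval of the reported value and 7 did not. The share of SATB1 peaks was 50.3% when the SMRC1 overlap had to cover at least 50% of the SATB1 peak and 49.97% when no NFIC peak was allowed within 500 bp. Without chromosomes 2, 6, 14, 16, 17 and 20 the share was 54.5%, the SATB1 fold 3.60, the SATB1 −log10 q 5.45, the width 392 bp and the SMRC1 fold 4.41. Placing sites by the SATB1 summit gave 1767 sites, 1663 of them among the 1732 reported. Promoter shares, G+C content and motif shares, 3 of the 9 planned results, were not run, since no hg19 sequence or annotation was used. Total depth is unknown, so the absence of an NFIC or SMRC1 peak says only that none was called.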
